A study of Mus musculus with 4 samples.

Results

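Conventional type 2 dendritic cells (cDC2) of the mouse liver were followed in 4 droplet single-cell RNA libraries, 2 from mice on control food (NCD) and 2 from mice on food without methionine and choline (MCD). A cell was taken as cDC2 when it held at least 1 UMI (unique molecular identifier, 1 counted RNA molecule) of at least 2 of the 5 markers Cd209a, Clec10a, Mgl2, Clec4b1 and Flt3. In addition, H2-Aa, H2-Ab1, H2-Eb1 and Cd74 together had to take at least 1% of its UMIs, C1qa, C1qb and C1qc together less than 0.1%, and fewer than 3 of the migratory genes Ccr7, Fscn1, Ccl22, Apol7c and Serpinb6b could be seen. The filter of 200 genes or more and of no more than 10% mitochondrial UMIs left 9609 cells. Of these, 1210 met the rule: 228 (NCD replicate 1), 204 (NCD replicate 2), 327 (MCD replicate 1) and 451 (MCD replicate 2). The members were thus chosen by these 17 genes, whose values are given below as a description and are not tested. All mice were male wild-type C57BL/6, 8 weeks old when they were obtained, and were kept on their diet for 6 weeks. The MCD diet is a standard way to produce fatty, inflamed liver in mice, and it also makes mice lose weight. Live (7AAD-) CD45+ Ly6G- cells with intermediate CD11b were sorted, and the series text gives the F4/80 gate as low where the sample labels give it as high. The labels do not say if a library came from 1 mouse or several, so a p-value measures only the spread between these libraries. Diet cannot be told apart from the batch of preparation.

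Dendritic cells take up antigen, cut it into peptides and show these to T cells. The cDC2 lineage depends on the receptor tyrosine kinase Flt3 and on transcription factors such as Irf4 and Klf4, and is known above all for presenting peptides on MHC class II to CD4 T cells. Class II molecules are built with the chaperone Cd74, which cathepsin S trims, and are loaded with peptide by H2-DM, which H2-O holds in check. The class II genes share short promoter elements, the X and Y boxes, through which the coactivator Ciita acts.

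The libraries differed in depth, and this touches every diet comparison below. The median UMI number of a cDC2 cell was 3072.5 and 3122.5 on NCD and 16191 and 15626 on MCD, and the summed class held from 828838 to 7821609 UMIs. Mitochondrial genes took a median of 7.37% and 7.20% of cDC2 UMIs on NCD and 3.23% and 3.09% on MCD, and ribosomal protein genes 37.9% and 35.5% against 22.2% and 22.5%. Other retained cells differed the same way, with medians of 2075 and 2174.5 UMIs on NCD and 11255 and 11803 on MCD. No cDC2 barcode was shared between libraries, while 1 to 8 retained barcodes were shared per pair of libraries. The part of depth and RNA quality in the diet differences was tested only by the thinned and filtered counts given beside the results. Levels are CPM, the UMIs of a gene per 1000000 UMIs of the summed class in 1 library.

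Cd209a, a C-type lectin of the DC-SIGN family (chr8:3743397-3748984, minus strand, GRCm38), stood at 946 and 1023 CPM in the NCD cDC2 cells and at 358 and 664 CPM in the MCD cDC2 cells. All other retained cells held 152 and 129 CPM on NCD and 11.0 and 36.4 CPM on MCD. The cDC2 cells were thus above the other cells in every library, as the rule requires, and the level in both MCD libraries lay below that in both NCD libraries. Clec4b1, another C-type lectin (chr6:123049962-123071555, plus strand), had the same order between diets, with 217 and 227 CPM on NCD and 104 and 93.3 CPM on MCD. Clec10a (chr11:70156197-70170834, plus strand) and Mgl2 (chr11:70130329-70137550, plus strand) encode galactose-type lectins from neighbouring genes. Clec10a was at 207, 187, 232 and 237 CPM in NCD replicates 1 and 2 and MCD replicates 1 and 2, and Mgl2 at 115, 124, 59.0 and 116 CPM. Flt3 (chr5:147330741-147400489, minus strand) was at 102, 159, 160 and 162 CPM. The diets overlapped for Mgl2, and for Flt3 the MCD libraries lay just above the higher NCD library.

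**Figure D1:**
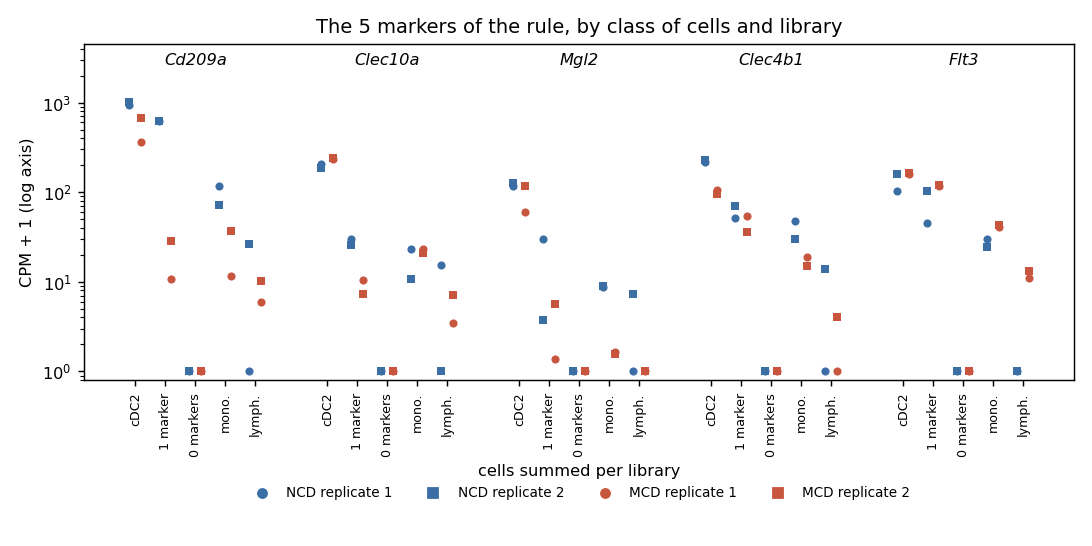
Summed level of the 5 markers of the rule in each library, as CPM plus 1 on a log axis, for the cDC2 cells, class II-high cells with 1 marker, class II-high cells with 0 markers, Ly6c2+ Ccr2+ monocytes and lymphoid cells; blue is NCD, red is MCD, circles are replicate 1 and squares replicate 2. The cDC2 cells lie above the other classes for each marker, since they were selected on these genes, and cells with 1 marker hold Cd209a at 617 and 625 CPM on NCD but at 9.89 and 27.3 CPM on MCD.

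The marker genes were seen in different combinations on the 2 diets, in cells counted at full depth. The median member held 3072.5 and 3122.5 UMIs on NCD and 16191 and 15626 on MCD. Depth and diet cannot be told apart in these counts of cells. On NCD, 132 of 228 and 122 of 204 cDC2 cells had exactly 2 markers, and 89.5% and 90.2% of the cells had Cd209a among them. On MCD, 122 of 327 and 115 of 451 had exactly 2, and all 5 markers were seen in 34 and 54 cells against 4 and 5 on NCD. Flt3 was seen in 31.6% and 43.6% of NCD members and in 80.1% and 82.9% of MCD members, although its CPM differed little. The 2-marker cells held Cd209a at 910 and 964 CPM on NCD and at 91.5 and 257 CPM on MCD. The cells with at least 3 markers held it at 987 and 1078 CPM against 508 and 805 CPM. Both groups were set by the number of markers seen, Cd209a among them, at unequal depth. These levels therefore cannot show if the cells of the 2 diets differed in kind. Just outside the marker threshold lay 171, 126, 164 and 114 class II-high cells with 1 marker. Just outside the class II threshold, at 0.5% to 1% of UMIs, lay 29, 23, 27 and 28 cells, and just inside it, at 1% to 1.5%, lay 59, 61, 22 and 23. The median member gave 1.79% of its UMIs to the 4 class II genes in both NCD libraries and 5.14% and 5.31% in the MCD libraries, so NCD members sat close to the threshold and MCD members well above it.

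The label was checked against genes that the rule did not use. Several defining genes of other lineages were at or near 0 in the cDC2 sums: Cd3e of T cells reached at most 1.04 CPM, Ms4a1 of B cells at most 2.07 CPM, Siglech of plasmacytoid dendritic cells at most 1.53 CPM and Clec4f of Kupffer cells at most 1.37 CPM, and Ly6g and Epx were at 0 in all 4 libraries. Xcr1 and Clec9a, which mark type 1 dendritic cells, stood at 10.4, 0, 9.10 and 8.44 CPM and at 24.9, 19.3, 18.4 and 26.0 CPM. The type 1 list summed to 546.5, 470.5, 791 and 788 CPM in members and to 540, 468, 697 and 645 CPM in other cells. Genes of other cells were present too: the summed endothelial list took 1256, 1622, 545 and 695 CPM of the members, the NK cell list 135, 123, 8.41 and 7.54 CPM and the macrophage and Kupffer cell list 569, 490, 1781 and 1458 CPM. The plasmacytoid list took 381, 401, 304 and 352 CPM and the neutrophil list 81.9, 59.1, 58.7 and 49.6 CPM. The single genes near 0 thus do not stand for their whole lists. At least 2 genes of 1 other lineage (B, T, NK, neutrophil, basophil and mast cell, or endothelial list) were seen in 51, 60, 149 and 263 members. This count took 1 UMI per gene as seen, at full depth, where MCD members held more UMIs. Leaving these members out kept 177, 144, 178 and 188, so that alternative removed more members on MCD than on NCD. At least 2 of Xcr1, Clec9a and Cadm1 were seen in 6, 0, 15 and 24 members. Cells with at least 3 migratory genes, left out by the rule, numbered 36, 20, 68 and 111 in all. They held Ccr7, the receptor that guides dendritic cells to lymph nodes, at 1310 to 3151 CPM, against 12.1 to 81.2 CPM in the members. Ccr7 is a gene of the rule, so this contrast was fixed by the choice of cells. The migratory list outside the rule summed to 475, 409, 683 and 635 CPM in members. In other cells that list summed to 733, 628, 1023 and 1133 CPM. The members also held genes shared with monocytes, among them Ccr2 at 458, 512, 564 and 476 CPM and Csf1r at 179, 160, 407 and 335 CPM. The listed genes known from cDC2 but outside the rule summed to 2891, 3024, 4109 and 3982 CPM in members. In other cells they summed to 2212, 2135, 2854 and 2741 CPM. Markers of cDC2 and class II were present together because the rule requires both, and a few members carried type 1 genes.

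Genes outside the rule were next ranked by the smallest ratio over the 4 libraries between cDC2 and all other cells, on the log2 scale of CPM plus 20. This is a description, since the same cells were chosen by class II and marker genes. Klrd1, better known as the NK receptor CD94, led with a difference of 1.43 to 2.32, from 306, 364, 233 and 259 CPM in the cDC2 cells against 101, 81.0, 36.3 and 35.8 CPM in the rest. Tnip3, a feedback inhibitor of NF-kappaB, followed with 1.29 to 1.81. H2-Ob and H2-Oa, the 2 chains of H2-O, had 1.28 to 1.62 and 1.26 to 2.15. The transcription factor Bcl11a had 1.11 to 1.70, and H2-DMa and H2-DMb1 had 0.92 to 1.55 and 0.84 to 2.13. Itgax, which encodes CD11c, had 0.89 to 1.33. Cell cycle regulator Ccnd1 (0.80 to 2.19) and the maturation marker Cd83 (0.76 to 0.98) were also among the 15 highest. At the other end stood genes of classical monocytes and of neutrophils, with Retnlg at -4.06 to -2.12, Chil3 at -3.06 to -1.70, Ly6c2 at -2.15 to -1.46 and Lyz2 at -1.76 to -1.41.

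The share of cDC2 cells among retained cells was close to equal on both diets. It was 13.1% (95% exact Clopper-Pearson interval 11.6% to 14.8%) and 11.4% (9.98% to 13%) in the NCD libraries and 11.1% (9.97% to 12.3%) and 14.4% (13.2% to 15.6%) in the MCD libraries. The intervals cover counting error only. The mean was 12.3% ± 1.22 (SD, n = 2) on NCD and 12.7% ± 2.33 (SD, n = 2) on MCD, a difference of 0.45 percentage points with a two-sided exact permutation p of 1.0. The smallest p that 2 libraries against 2 allow is 0.333. The difference turned to -0.41 without NCD replicate 2 and to -1.20 without MCD replicate 2. The order of the diets depended on how the rule meets the depth. With at least 3 markers the shares were 5.53%, 4.59%, 6.95% and 10.7%, higher in both MCD libraries (exact permutation p = 0.333). With every cell thinned to 1000 UMIs they were 5.31%, 4.26%, 1.65% and 3.54%, lower in both MCD libraries (exact permutation p = 0.333). The sort and its F4/80 gate set which cells entered, so these are shares of sorted cells.

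**Figure D2:**
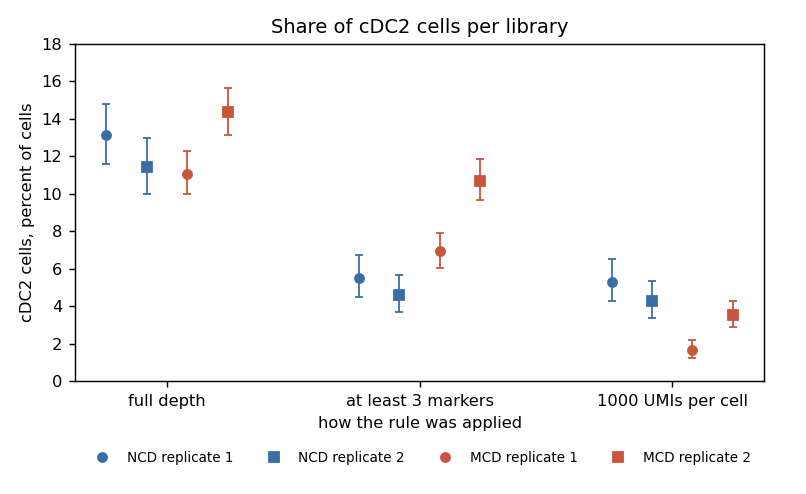
Share of cDC2 cells in each library in percent, with 95% exact intervals, for the rule at full depth, for at least 3 of the 5 markers, and for cells thinned to 1000 UMIs; blue is NCD, red is MCD. The libraries overlap at full depth (11.1% to 14.4%), both MCD libraries lie above NCD with 3 markers, and both lie below NCD at 1000 UMIs.

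The genes of class II presentation were described with their promoters because they define the cells and because several of them differed between the diets. The class II genes lie close together on chromosome 17 of GRCm38, for example H2-Aa at 34282744 to 34287823 on the minus strand and H2-Ab1 at 34257689 to 34269419 and H2-Eb1 at 34305867 to 34316674 on the plus strand. The sequences below are the 150 bases before the RefSeq transcription start (GRCm38.p6), on the gene's own strand from 5' to 3'. Capitals mark matches to the core of the X box and to the Y-box core GATTGG or, on the other strand, its reverse complement.
H2-Aa, chr17:34287824-34287973, minus strand: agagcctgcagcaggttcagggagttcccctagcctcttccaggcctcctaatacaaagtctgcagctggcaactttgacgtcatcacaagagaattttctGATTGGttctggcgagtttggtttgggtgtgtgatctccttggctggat
H2-Eb1, chr17:34305717-34305866, plus strand: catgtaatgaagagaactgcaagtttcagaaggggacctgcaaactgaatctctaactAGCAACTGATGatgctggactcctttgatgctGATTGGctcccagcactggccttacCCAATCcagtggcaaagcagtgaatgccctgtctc
H2-DMb1, chr17:34153041-34153190, plus strand: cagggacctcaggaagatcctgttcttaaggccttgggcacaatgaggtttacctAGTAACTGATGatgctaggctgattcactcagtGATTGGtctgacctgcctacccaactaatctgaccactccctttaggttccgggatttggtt
H2-DMb2, chr17:34145099-34145248, plus strand: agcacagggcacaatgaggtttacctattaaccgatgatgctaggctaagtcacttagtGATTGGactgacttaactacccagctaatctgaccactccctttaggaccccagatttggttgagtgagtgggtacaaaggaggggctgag
H2-Oa, chr17:34092229-34092378, plus strand: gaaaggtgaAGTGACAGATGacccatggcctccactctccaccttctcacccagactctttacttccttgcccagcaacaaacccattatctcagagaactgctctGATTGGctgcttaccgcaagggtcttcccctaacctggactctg
The Y-box core begins 49 bases before the start in H2-Aa, 60 in H2-Eb1, 62 in H2-DMb1, 91 in H2-DMb2 and 44 in H2-Oa. The X-box core begins 92 bases before the start in H2-Eb1, 95 in H2-DMb1 and 141 in H2-Oa. On either strand of the RefSeq promoter windows, the X-box core was found in 318 of 32851 (0.968%) and in 4 of the 8 H2 class II genes with an entry, which are H2-DMb1, H2-Eb1, H2-Eb2 and H2-Oa. The Y-box core was found in 5292 (16.1%) and in all 8. A match is only a description of the letters, and the paired H2-DMb1 and H2-DMb2 stretches are alike over much of their length.

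The class II genes of the rule had higher levels in the MCD members. H2-Aa was at 6454 and 6508 CPM on NCD and at 9372 and 9622 CPM on MCD, H2-Ab1 at 3444 and 3178 against 8731 and 9012 CPM, H2-Eb1 at 3347 and 3103 against 7794 and 7901 CPM, and Cd74 at 4991 and 5411 against 21790 and 22770 CPM. These genes chose the members and carry no test. In class II-high cells with none of the 5 markers, H2-Aa was at 6489 and 6071 CPM on NCD and 5601 and 5198 CPM on MCD, lower on MCD. The other 3 genes were higher on MCD in those cells, with H2-Ab1 at 3227, 2830, 4501 and 4448 CPM, H2-Eb1 at 3113, 2588, 3493 and 3546 CPM and Cd74 at 4950, 5339, 12880 and 13360 CPM. In class II-high cells with 1 marker all 4 were higher on MCD, H2-Aa for example at 6123, 6340, 8340 and 7768 CPM. In all other cells together H2-Aa overlapped between diets (2793, 1765, 2352 and 1955 CPM), while H2-Ab1 (1417, 832, 1948 and 1627 CPM), H2-Eb1 (1356, 748, 1823 and 1576 CPM) and Cd74 (2327, 1638, 5330 and 4678 CPM) were higher in both MCD libraries. In the Ly6c2+ Ccr2+ monocytes described below, H2-Aa (1143, 694.5, 202 and 172 CPM) and H2-Ab1 (640, 349, 223 and 180 CPM) were lower on MCD. So was H2-Eb1 (535, 285, 104 and 94.1 CPM), while Cd74 overlapped (1103, 782, 815 and 725 CPM). Most of these genes thus had the members' order in class II-high cells and in all other cells together, but not in the monocytes. The class II share also chose the class II-high cells and, by an upper limit, the monocytes.

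Diets were then compared over all genes in the summed cDC2 cells, with the edgeR quasi-likelihood F test and Benjamini-Hochberg adjustment at 0.05. Fold changes are log2 of MCD over NCD given with their standard error (SE), and every adjusted p of a gene comes from this test. Of 10074 genes tested, 3454 (34.3%) passed, 1773 (17.6%) higher and 1681 (16.7%) lower on MCD, with a median log2 fold change of 0.02 over all genes. Of these, 1900 passed in the same direction without NCD replicate 1 and 1730 without NCD replicate 2, where 2012 and 1789 genes passed in all, and DESeq2 gave 2074. Scaling by library totals in place of TMM moved the median of all genes to 0.27 and gave 2719 higher and 1042 lower, so that 72.3% of calls were higher against 51.3%. With the same cells each thinned to 1000 UMIs, an alternative chosen after seeing the data, 1897 of the 3454 could be tested, 1852 of them in the same direction, and 1017 passed in that direction. With a background of 34.3%, a call by itself says little about a gene, and sizes and levels are given for that reason. Each count of list members below is to be read beside the 17.6% higher and 16.7% lower over all genes. The same libraries entered every comparison below.

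Outside the rule, the class II loading and editing list had 6 of 11 tested members higher, 1 lower and 4 not past the threshold, with a median log2 fold change of 0.61. H2-DMb1, a chain of the peptide loader H2-DM, was at 190 and 216 CPM on NCD and at 739 and 764 CPM on MCD. Both MCD libraries were above both NCD libraries, and the log2 fold change was 1.64 (SE 0.11, adjusted p = 4.27e-07). Its partner H2-DMa was at 444, 380, 746 and 747 CPM (0.60, SE 0.12, adjusted p = 0.00173), but the call was lost with a class II share of at least 2% (0.19, adjusted p = 0.289) and without members that held 2 genes of another lineage (0.13, adjusted p = 0.506). H2-DMb2 was at 46.7, 31.4, 119 and 116 CPM (1.31, SE 0.19, adjusted p = 0.000156; 0.97 and 0.0540 in the same cells thinned to 1000 UMIs). H2-Ob, a chain of the H2-DM inhibitor, went the other way, from 93.3 and 96.5 CPM on NCD to 64.4 and 65.3 CPM on MCD (-0.80, SE 0.14, adjusted p = 0.000794). The other chain, H2-Oa, was at 91.3, 55.5, 121 and 134 CPM and did not pass (0.52, SE 0.19, adjusted p = 0.0528). The loader and its inhibitor chain H2-Ob thus moved in opposite directions. Ciita, the class II coactivator, was at 46.7 and 66.4 CPM on NCD and at 124 and 110.3 CPM on MCD (0.81, SE 0.17, adjusted p = 0.00264; 0.63 and 0.0602 without NCD replicate 1). Ifi30, a reductase that opens disulphide bonds of antigens, rose from 476 and 445 to 1179 and 1086 CPM (1.04, SE 0.11, adjusted p = 1.35e-05). Ctss, the cathepsin that trims Cd74, rose from 714 and 656 to 1396 and 1208 CPM (0.67, SE 0.12, adjusted p = 0.000637). Ciita also did not pass at a class II share of at least 2% (0.70, adjusted p = 0.138).

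Class I presentation was mixed, with 7 of 15 higher, 3 lower and 5 not past the threshold, and 1 was lower without NCD replicate 1, MCD replicate 1 or MCD replicate 2. The immunoproteasome subunit Psmb10 was at 28.0 and 19.3 CPM on NCD and 132 and 132 CPM on MCD (log2 fold change 2.20, SE 0.20, adjusted p = 3.57e-06). Psmb8, another such subunit, was at 190, 141, 460 and 488 CPM (1.25, SE 0.15, adjusted p = 2.80e-05), and the peptide transporter genes Tap1 and Tap2 also rose. The light chain B2m fell from 3843 and 3382 CPM to 1996 and 2131 CPM (-1.07, SE 0.11, adjusted p = 1.06e-05).

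**Figure D3:**
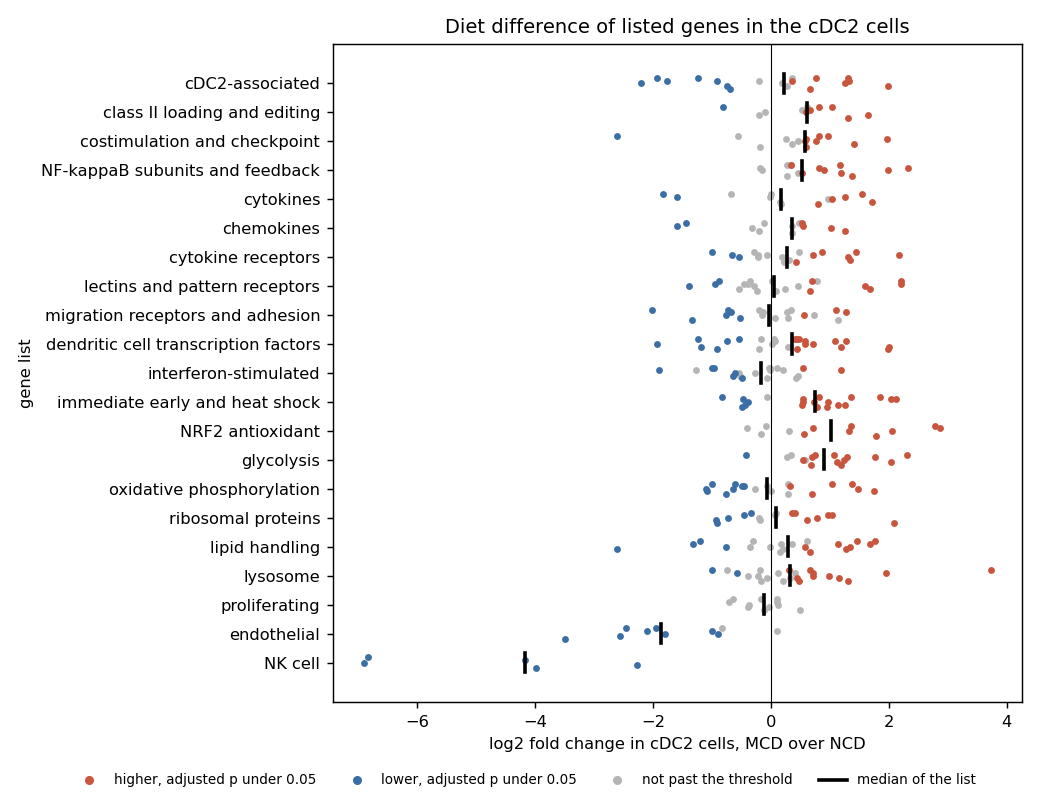
Log2 fold change, MCD over NCD, of the tested members of 21 gene lists in the summed cDC2 cells; red and blue points passed an adjusted p of 0.05 in either direction, grey points did not, and the black bar is the median of the list. The endothelial and NK cell lists lie to the left (medians -1.86 and -4.16), while NRF2, glycolysis and stress genes lie to the right (medians 1.02, 0.91 and 0.75) and the proliferating list has no point past the threshold.

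Genes known from cDC2 but outside the rule split evenly, with 7 of 18 higher, 7 lower and 4 not past the threshold (median 0.23). Notch2, the receptor that one branch of cDC2 needs, was at 230 and 257 CPM on NCD and at 78.4 and 73.5 CPM on MCD. The libraries of the diets were far apart, and the log2 fold change was -1.93 (SE 0.12, adjusted p = 2.34e-07). All other cells held Notch2 at 260, 273, 100 and 96.4 CPM, so the order of the diets was the same there. Klf4, a transcription factor of cDC2, fell from 546 and 494 to 395 and 351 CPM (-0.74, SE 0.12, adjusted p = 0.000371). Bcl11a, needed for dendritic cell progenitors, fell from 128 and 154 to 70.0 and 72.8 CPM (-1.23, SE 0.14, adjusted p = 1.95e-05). Zbtb46, which marks conventional dendritic cells, was at 48.7, 50.7, 27.8 and 34.5 CPM (-0.92, SE 0.20, adjusted p = 0.00285), and leaving out NCD replicate 1 (-0.88, adjusted p = 0.0591) or NCD replicate 2 (-0.92, adjusted p = 0.0552) ended the call. Klrd1 fell by 0.70 (SE 0.12, adjusted p = 0.000553), with values given above. Napsa, an aspartic protease, rose from 106 and 138 to 582 and 559 CPM (1.98, SE 0.13, adjusted p = 2.91e-07). The ion channel gene Tmem176b rose from 179 and 196 to 584 and 534 CPM (1.32, SE 0.12, adjusted p = 3.29e-06), and the cytokine Ltb from 14.5 and 14.5 to 42.7 and 40.7 CPM (1.26, SE 0.24, adjusted p = 0.00132). Ltb did not pass in the same cells thinned to 1000 UMIs (1.23, adjusted p = 0.0606). Irf4, the factor on which the lineage depends, was at 28.0, 27.8, 24.9 and 32.6 CPM and did not pass (-0.20, SE 0.24, adjusted p = 0.555).

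Among 24 transcription factors of dendritic cells, 12 were higher, 6 lower and 6 not past the threshold, but 6 were higher without NCD replicate 2 and 6 without MCD replicate 1. Nr4a3, an activation-induced nuclear receptor, was at 19.7 and 21.7 CPM on NCD and at 87.7 and 110 CPM on MCD (log2 fold change 2.01, SE 0.22, adjusted p = 1.79e-05). The myeloid factors Spi1 (208, 187, 525 and 485 CPM) and Cebpa (59.1, 54.3, 179 and 150 CPM) rose by 1.09 (SE 0.12, adjusted p = 2.11e-05) and 1.27 (SE 0.17, adjusted p = 7.09e-05). Tcf4, the factor of plasmacytoid cells that cDC2 also express, fell from 220 and 240 to 116 and 124 CPM (-1.19, SE 0.12, adjusted p = 8.98e-06).

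Costimulatory genes were mostly higher, with 8 of 14 higher, 1 lower and 5 not past the threshold (median 0.58). Tnfsf9, the ligand 4-1BBL, was at 66.4 and 60.3 CPM on NCD and at 229 and 361 CPM on MCD. Both MCD libraries stood above NCD by more than the spread within a diet, with a log2 fold change of 1.96 (SE 0.22, adjusted p = 2.23e-05). Other cells held Tnfsf9 at 36.5, 25.9, 52.5 and 99.1 CPM. Icam1, an adhesion ligand for T cells, rose from 52.9 and 39.8 to 159 and 139 CPM (1.41, SE 0.18, adjusted p = 5.59e-05). Cd83 rose from 406 and 368 to 683 and 718 CPM (0.60, SE 0.11, adjusted p = 0.00129), but not past the threshold in the same cells thinned to 1000 UMIs (0.34, adjusted p = 0.127). Cd86, the main ligand for CD28, was at 86.1, 78.4, 156 and 138 CPM (0.58, SE 0.15, adjusted p = 0.00923). Pdcd1lg2, the checkpoint ligand PD-L2, was the 1 member that fell, from 14.5 and 8.45 to 2.40 and 2.17 CPM (-2.60, SE 0.48, adjusted p = 0.00107), which no longer passed when NCD replicate 1 was left out (-2.07, adjusted p = 0.0767). Of the list, 4 of 14 members were higher without NCD replicate 1 and 4 without NCD replicate 2, and 2 of 12 were higher in the same cells thinned to 1000 UMIs.

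NF-kappaB genes rose without exception among the calls, with 9 of 15 higher, 0 lower and 6 not past the threshold (median 0.53). Nfkb2, the precursor of p52, was at 7.26 and 15.7 CPM on NCD and at 71.2 and 63.4 CPM on MCD (log2 fold change 2.33, SE 0.27, adjusted p = 2.78e-05). Its partner Relb was at 18.7 and 13.3 CPM against 82.2 and 70.6 CPM (1.98, SE 0.24, adjusted p = 3.41e-05). These are the subunits of the noncanonical arm, which the receptor Ltbr can switch on. Ltbr was at 4.15 and 12.1 CPM against 41.2 and 42.7 CPM (2.16, SE 0.33, adjusted p = 0.000225). The NCD libraries held 7 and 13 UMIs of Nfkb2, 18 and 11 of Relb and 4 and 10 of Ltbr, so the size of these rises is uncertain. Traf1, a target of the pathway, rose from 90.2 and 85.7 to 251 and 230 CPM (1.19, SE 0.14, adjusted p = 2.50e-05). The list had 9 higher without NCD replicate 1, 7 without NCD replicate 2 and 8 of 14 in the same cells thinned to 1000 UMIs, with 0 lower each time, 8 higher and 1 lower without MCD replicate 2, and 9 higher and 1 lower without members that held 2 genes of another lineage.

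Cytokine genes had 5 of 13 higher and 2 lower. Il1b was at 442 and 434 CPM on NCD and at 1541 and 1510 CPM on MCD, with a log2 fold change of 1.54 (SE 0.11, adjusted p = 3.64e-07). Tgfb1, which encodes an immune-suppressing and fibrogenic cytokine, rose from 99.5 and 85.7 to 376 and 356 CPM (1.72, SE 0.14, adjusted p = 1.26e-06). Osm, of the IL-6 family, rose from 43.6 and 36.2 to 98.3 and 98.1 CPM (1.03, SE 0.17, adjusted p = 0.000518), but did not pass in the thinned cells (0.83, adjusted p = 0.103). Il15, which sustains NK and memory T cells, fell from 22.8 and 33.8 to 7.55 and 10.9 CPM (-1.83, SE 0.31, adjusted p = 0.000549). Tnf was at 56.0, 47.1, 76.5 and 139 CPM (0.81, SE 0.28, adjusted p = 0.0403), and leaving out NCD replicate 1 (adjusted p = 0.179), NCD replicate 2 (0.343) or MCD replicate 2 (0.322) ended this call. Of the cytokine genes 1 was lower without NCD replicate 1, NCD replicate 2 or MCD replicate 1. Among chemokines, 4 of 12 were higher and 2 lower, with 2 of 15 higher without NCD replicate 1. Cxcl16, a membrane-bound ligand for CXCR6 on T and NKT cells, rose from 117 and 104 to 291 and 246 CPM (1.02, SE 0.14, adjusted p = 0.000138). The neutrophil attractant Cxcl2 was at 119, 113, 284 and 378 CPM (1.25, SE 0.16, adjusted p = 5.89e-05), yet at 0.19 (adjusted p = 0.445) without members that held 2 genes of another lineage. The interferon-gamma-induced Cxcl9 fell from 255 and 131 to 64.9 and 90.9 CPM (-1.58, SE 0.25, adjusted p = 0.000293), but was at -0.77 (adjusted p = 0.360) at a class II share of at least 2%.

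Receptors gave 7 of 18 higher and 3 lower, where 17.6% of all tested genes were higher and 16.7% lower. Csf2rb, the shared signalling chain for GM-CSF, rose from 101 and 73.6 to 276 and 246 CPM (log2 fold change 1.31, SE 0.16, adjusted p = 4.32e-05), and Il4ra from 24.9 and 19.3 to 75.0 and 69.7 CPM (1.44, SE 0.21, adjusted p = 0.000161). Of the lectins and pattern receptors 6 of 20 rose and 3 fell. Clec4e, the receptor Mincle, rose from 58.1 and 41.0 to 190 and 174 CPM (1.60, SE 0.18, adjusted p = 1.71e-05). Its partner Clec4d rose from 5.19 and 6.03 to 35.7 and 26.6 CPM (2.21, SE 0.38, adjusted p = 0.000602), on only 5 and 5 NCD UMIs. The endotoxin co-receptor Cd14 rose from 37.3 and 45.9 to 195 and 259 CPM (2.21, SE 0.19, adjusted p = 3.00e-06). The mannose receptor Mrc1 fell from 177 and 208 to 68.1 and 107 CPM (-1.38, SE 0.19, adjusted p = 9.54e-05), a gene that liver endothelium also expresses, and was at -0.72 (adjusted p = 0.118) without members that held 2 genes of another lineage. Migration and adhesion genes had 3 of 18 higher and 6 lower. Itgb7, the integrin chain of gut homing, rose from 71.5 and 112 to 238 and 288 CPM (1.28, SE 0.17, adjusted p = 8.86e-05; 0.72 and 0.0545 at a class II share of at least 2%). Gpr183, the oxysterol receptor that places cDC2 in spleen, fell from 142 and 157 to 108 and 103 CPM (-0.76, SE 0.13, adjusted p = 0.000579). Of the receptors 1 fell without NCD replicate 1, NCD replicate 2 or MCD replicate 2, and of the lectins 1 fell without NCD replicate 1 and 5 without MCD replicate 1. Interferon-stimulated genes had 2 of 20 higher, 6 lower and 12 not past the threshold, with 3 lower without NCD replicate 1 and 1 higher without NCD replicate 2. Gbp5, a guanylate-binding protein induced by interferon, fell from 47.7 and 36.2 to 12.7 and 14.3 CPM (-1.90, SE 0.24, adjusted p = 5.47e-05; -0.48 and 0.638 at a class II share of at least 2%), while Irf7 rose from 22.8 and 27.8 to 65.0 and 71.1 CPM (1.18, SE 0.20, adjusted p = 0.000505). The medians of the migration and the interferon lists, -0.04 and -0.17, turned to 0.22 and 0.09 under scaling by library totals.

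**Figure D4:**
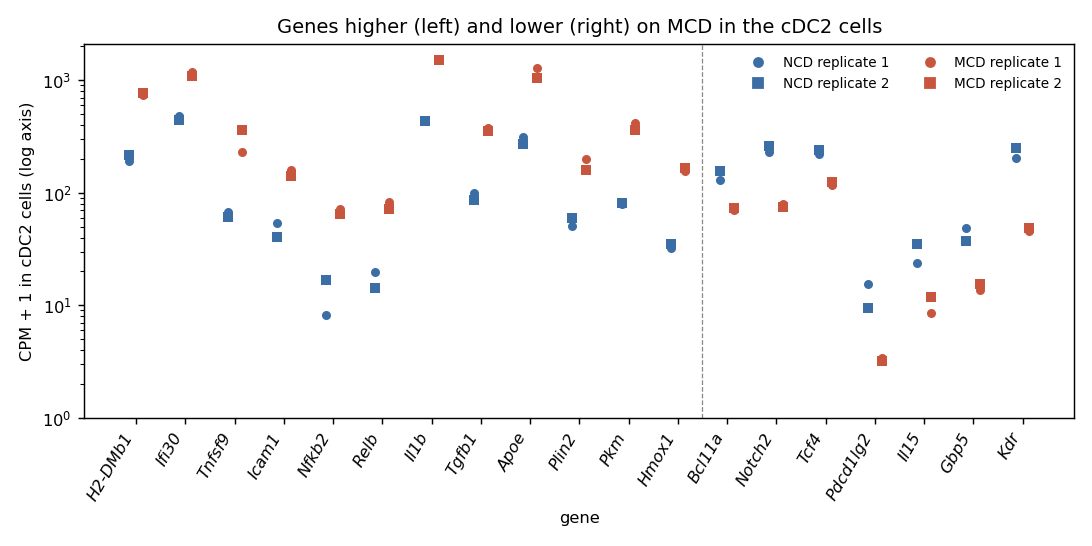
CPM plus 1 on a log axis in the cDC2 cells of each library for 12 genes higher on MCD (left of the dashed line) and 7 lower (right); blue is NCD, red is MCD. The genes were picked from those past the threshold, so a lack of overlap between the diets largely follows from that choice. An example is Il1b at 442 and 434 against 1541 and 1510 CPM. The share of all tested genes without overlap is not given here.

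Stress and metabolic genes differed as well. Of 20 immediate early and heat shock genes, 14 were higher and 5 lower, with 2 lower without NCD replicate 1 and 3 without MCD replicate 2. Hspa1a, an inducible HSP70 gene, was at 456 and 580 CPM on NCD and at 2059 and 2973 CPM on MCD (log2 fold change 2.03, SE 0.16, adjusted p = 1.06e-06). Atf3, a stress-induced repressor, was at 388 and 373 against 1638 and 1630 CPM (1.85, SE 0.11, adjusted p = 9.95e-08). Such genes also respond to tissue dissociation, and the part of the preparation was not tested. Of 12 NRF2 antioxidant genes, 8 were higher and 0 lower, while 4 of 8 were higher and 2 lower in the same cells thinned to 1000 UMIs. Ftl1, the ferritin light chain, was at 417 and 428 against 3662 and 3308 CPM (2.79, SE 0.11, adjusted p = 1.17e-08), and haem oxygenase Hmox1 at 31.1 and 33.8 against 154 and 166 CPM (2.05, SE 0.17, adjusted p = 1.65e-06). Glycolysis had 12 of 16 higher and 1 lower, with Pkm at 78.8 and 79.6 against 416 and 363 CPM (2.04, SE 0.14, adjusted p = 3.77e-07) and Gapdh at 371 and 293 against 952 and 933 CPM (1.24, SE 0.13, adjusted p = 1.23e-05). Oxidative phosphorylation was split, with 6 of 19 higher and 8 lower (median -0.07, and 0.19 under library totals).

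Over all tested genes 17.6% were higher and 16.7% lower. Of 17 genes that handle methionine or choline, which the diet removes, 4 were higher, 2 lower and 11 not past the threshold. Without 1 library 1 to 4 were higher and 1 to 4 lower, the fewest higher without NCD replicate 2 and the most lower without MCD replicate 2. The methionine adenosyltransferase Mat2a was at 140, 186, 142 and 164 CPM and did not pass (log2 fold change -0.33, SE 0.14, adjusted p = 0.0854). Odc1, the first enzyme of polyamine synthesis, rose from 24.9 and 21.7 to 77.7 and 86.7 CPM (1.56, SE 0.20, adjusted p = 6.56e-05). Amd1, which supplies the aminopropyl donor for polyamines, fell from 109 and 134 to 41.2 and 36.2 CPM (-1.90, SE 0.15, adjusted p = 1.32e-06), a value made uncertain by its near-identical gene copies. Lipid handling had 8 of 20 higher, 4 lower and 8 not past the threshold, with 5 higher without NCD replicate 2. The apolipoprotein Apoe was at 309 and 270 CPM on NCD and at 1296 and 1051 CPM on MCD (1.76, SE 0.14, adjusted p = 9.27e-07), where other cells held 769, 845, 2903 and 3724 CPM. Plin2, a coat protein of lipid droplets, rose from 49.8 and 59.1 to 199 and 157 CPM (1.46, SE 0.18, adjusted p = 3.61e-05). Of sterol synthesis, Fdps rose from 15.6 and 7.24 to 77.4 and 85.0 CPM (2.54, SE 0.27, adjusted p = 1.19e-05) and Sqle from 8.30 and 7.24 to 29.3 and 30.3 CPM (1.67, SE 0.31, adjusted p = 0.000951). Sqle did not pass at a class II share of at least 2% (0.69, adjusted p = 0.344) or without members that held 2 genes of another lineage (1.05, adjusted p = 0.0684). The NCD libraries held only 8 and 6 UMIs of Sqle.

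Genes of monocytes and macrophages were higher in the MCD members. Of 15 genes of Ly6Chi monocytes 9 rose and 1 fell, and of 10 macrophage genes 7 rose and 2 fell, whereas of 12 genes of Ly6Clo monocytes 1 rose and 7 fell. The macrophage count rested on the NCD libraries, with 3 of 12 higher without NCD replicate 1 and 2 of 12 without NCD replicate 2. Lyz2, lysozyme, was at 1604 and 1433 CPM on NCD and at 5650 and 5667 CPM on MCD (log2 fold change 1.64, SE 0.11, adjusted p = 3.13e-07). All other cells held Lyz2 at 4750, 4735, 15070 and 19250 CPM, and lymphoid cells, which should lack it, at 646, 1232, 197 and 324 CPM. After thinning to 1000 UMIs, Lyz2 was seen in 42.1%, 42.4%, 64.2% and 71.4% of members and in 13.9%, 23.8%, 17.6% and 22.4% of lymphoid cells (61.4%, 63.7%, 98.2% and 99.6% against 25.6%, 23.3%, 63.8% and 75.0% unthinned). The summed Ly6Chi monocyte list took 5154, 4901, 10860 and 10040 CPM in members and 11090, 11010, 25360 and 29900 CPM in other cells. The lymphoid cells were chosen to hold no Csf1r UMI, at unequal depth, so their Lyz2 need not be the level of free RNA. The part of monocyte RNA in the members' values was not tested.

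Genes of NK and endothelial cells were lower. All 5 tested NK cell genes and 8 of 10 endothelial genes were lower on MCD, with none higher. Gzma, a granule protease of cytotoxic cells, had the largest fall, from 64.3 and 53.1 to 0.343 and 0.767 CPM (log2 fold change -6.84, SE 0.37, adjusted p = 6.63e-08). Its UMIs came from 12 and 6 NCD members, with up to 29 UMIs in 1 cell, and lymphoid cells held it at 9495 and 8481 CPM on NCD and 3588 and 3908 CPM on MCD. Kdr, an endothelial growth factor receptor, fell from 204 and 250 to 44.4 and 47.2 CPM (-2.56, SE 0.14, adjusted p = 5.99e-08). It was seen in 36, 34, 22 and 45 members, and lymphoid cells held it at 187, 606, 34.9 and 21.4 CPM. At a class II share of at least 2% Kdr did not pass (-1.04, adjusted p = 0.0897), and the part of free RNA in this fall was not tested. Ccl5 fell from 276 and 234 to 108 and 118 CPM (-1.44, SE 0.13, adjusted p = 4.77e-06), but by 0.32 (adjusted p = 0.573) without members that held 2 genes of another lineage. Without them only 1 endothelial and 1 NK cell gene could be tested, and neither passed. That filter removes members by genes of these same lists, Gzma and Kdr among them, so it cannot show if the falls hold.

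Among genes with at least 50 CPM in the mean of the higher diet and at least 10 UMIs in each of its libraries, the 12 with the largest rises were Lars2, Hp, Ninj1, Gadd45b, Gdf15, Khk, Tmem259, Ogfr, Nubp1 and Erdr1, besides Ftl1 and Fdps. For a rise these limits apply to MCD only. The NCD libraries held 1 and 5 UMIs of Lars2, 8 and 12 of Hp, 9 and 13 of Ninj1 and 3 and 10 of Gdf15. They held 12 and 6 of Khk, 4 and 7 of Tmem259, 9 and 9 of Ogfr and 8 and 7 of Nubp1. Erdr1 had 6 and 8, Fdps 15 and 6, Gadd45b 47 and 23 and Ftl1 402 and 355. Folds that rest on so few NCD UMIs are uncertain in size. Lars2, the mitochondrial leucyl-tRNA synthetase, was at 1.04 and 6.03 CPM on NCD and at 72.8 and 78.0 CPM on MCD (log2 fold change 4.22, SE 0.36, adjusted p = 2.31e-06), and lymphoid cells held it at 0, 6.38, 99.8 and 70.3 CPM. The order of the diets was the same in both classes. Gadd45b, a stress-response gene, rose from 48.7 and 27.8 to 271 and 331 CPM (2.69, SE 0.21, adjusted p = 9.88e-07), Ninj1, which acts in membrane rupture, from 9.33 and 15.7 to 115 and 99.3 CPM (2.86, SE 0.24, adjusted p = 2.04e-06), and the stress cytokine Gdf15 from 3.11 and 12.1 to 62.0 and 45.4 CPM (2.62, SE 0.39, adjusted p = 0.000189). Erdr1, which has near-identical copies, was at 6.22, 9.65, 310 and 78.5 CPM (4.36, SE 0.80, adjusted p = 0.000947) and was lost without NCD replicate 1 (adjusted p = 0.0789) or NCD replicate 2 (0.0804). By the same limits, the largest falls beside Gzma were Lyve1, Dlc1, Gng11, Plpp3, Cd55, Oit3, Meis2, Nfib, Mmrn2, Ehd3 and Maf, from -3.49 to -2.76. Dlc1, Gng11, Oit3, Meis2, Nfib, Ehd3 and Lyve1 no longer passed at a class II share of at least 2%, where they were at -2.12 to -1.20. Several of these, such as Lyve1, Plpp3 and Maf, are strongly expressed by liver sinusoidal endothelium. Plpp3 was at 235, 279, 37.8 and 41.9 CPM in members and at 359, 562, 44.9 and 33.6 CPM in lymphoid cells. Among ribosomal proteins Rplp0 rose by 2.08 (SE 0.10, adjusted p = 3.79e-08) and Rps9 was at -0.91 (SE 0.10, adjusted p = 1.33e-05), and lymphoid cells also held Rplp0 at 474, 460, 3364 and 3278 CPM.

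Whether the diet difference in cDC2 cells was unlike that in other cells was tested with a class by diet term and library as a block. Against all other cells, 61 of 11450 genes (0.533%) passed, 27 with a more positive and 34 with a more negative diet difference in cDC2 cells (42 and 13 under library totals). Most of the changes above were therefore not shown to differ from those in the rest of the sort. Ccnd1, cyclin D1, was at 197 and 264 CPM on NCD and at 156 and 237 CPM on MCD in cDC2 cells, but went from 105 and 118 to 21.9 and 36.4 CPM in the other cells. The members overlapped between diets where the other cells did not, a difference of 1.60 (SE 0.13, adjusted p = 0.000204). Dab2, an endocytic adaptor, was at 107, 164, 65.5 and 128 CPM in cDC2 cells and at 122, 176, 18.5 and 38.0 CPM in other cells (1.80, SE 0.13, adjusted p = 6.95e-05). Ifitm1 was at 37.3, 36.2, 36.9 and 32.0 CPM against 106, 179, 25.3 and 30.9 CPM (2.07, SE 0.25, adjusted p = 0.00479). The cell cycle genes Top2a (1.67, SE 0.22, adjusted p = 0.00866) and Stmn1 (1.51, SE 0.27, adjusted p = 0.0332) had the same order. Without NCD replicate 1 Stmn1 had an adjusted p of 0.162 and Top2a one of 0.0504, and without NCD replicate 2 Stmn1 had one of 0.109. Without members that held 2 genes of another lineage Top2a was at 0.76 (adjusted p = 0.352) and Stmn1 at 0.67 (adjusted p = 0.416), and in the same cells thinned to 1000 UMIs they were at 0.61 (adjusted p = 0.897) and 1.22 (adjusted p = 0.282). Dab2 was at 0.96 (adjusted p = 0.198) in the thinned cells. Il1b rose less in cDC2 cells than in the rest (-1.03, SE 0.16, adjusted p = 0.0214), where it went from 305 and 187 to 1571 and 1588 CPM. Gzma had a term of -4.48 (SE 0.46, adjusted p = 0.00132), on the few cells given above, and was at -2.08 (adjusted p = 0.377) without members that held 2 genes of another lineage and at -3.27 (adjusted p = 0.118) in the thinned cells. H2-Oa had a term of 1.03 (SE 0.19, adjusted p = 0.0362). Without NCD replicate 1 the test gave 23 calls, and without NCD replicate 2 it gave 28, while leaving out MCD replicate 1 or 2 gave 140 or 149.

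The rest of the sort holds many cell types, so a contrast with Ly6c2+ Ccr2+ monocytes was added after the data had been seen. These cells held at least 1 UMI each of Ly6c2 and Ccr2. The 4 class II genes of the rule took less than 1% of their UMIs and the C1q genes less than 0.1%. They numbered 249, 310, 960 and 1282. Their median UMIs were 2358 and 2504.5 on NCD and 13971 and 13277 on MCD, so the 1 UMI limit was met at unequal depth and may admit different cells. Of 10685 genes, 41 (0.384%) passed, 23 with a more positive and 18 with a more negative diet difference in cDC2 cells (53 and 8 under library totals). Ccnd1 was at 60.4 and 59.2 CPM in NCD monocytes and at 2.61 and 9.44 CPM in MCD monocytes, a difference from cDC2 cells of 2.94 (SE 0.35, adjusted p = 0.00606). Ccnd2, cyclin D2, was at 148, 177, 170 and 200 CPM in cDC2 cells and at 105, 108, 19.2 and 29.6 CPM in monocytes (2.17, SE 0.19, adjusted p = 0.00113). Dab2 was at 138, 114, 8.33 and 20.5 CPM in monocytes (2.51, SE 0.24, adjusted p = 0.00148). Among genes of dividing cells, the topoisomerase Top2a (2.67, SE 0.30, adjusted p = 0.00365), Mki67 (2.26, SE 0.31, adjusted p = 0.0145) and the ubiquitin carrier Ube2c (3.62, SE 0.49, adjusted p = 0.0130) passed. Mki67 was at 34.2, 44.6, 51.3 and 48.7 CPM in cDC2 cells and at 14.5, 24.2, 4.42 and 4.78 CPM in monocytes, where the MCD libraries were both lower. Of 11 listed genes of dividing cells 4 passed here and 3 passed against all other cells, while 0 of 11 differed between diets within the cDC2 cells (edgeR, median log2 fold change -0.12). None of the 11 had an unadjusted p under 0.05, and DESeq2 also called 0. Without members that held 2 genes of another lineage, 6 of these 11 were lower on MCD within the cDC2 cells (median -1.37). Without members above 2 times the median UMIs of the members of their library, 5 were lower (median -1.11). Il1b had a term of -1.09 (SE 0.20, adjusted p = 0.0495) and Gzma one of -5.75 (SE 0.55, adjusted p = 0.00148).

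**Figure D5:**
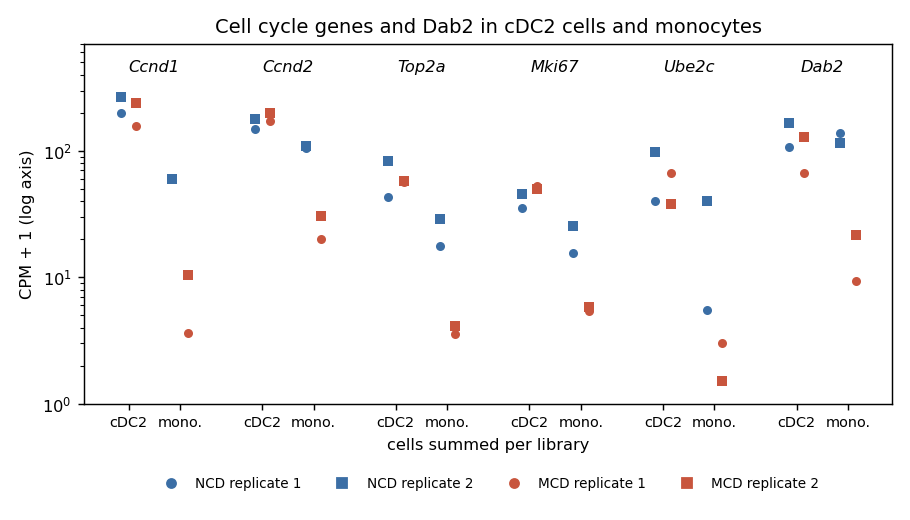
CPM plus 1 on a log axis in the cDC2 cells and the Ly6c2+ Ccr2+ monocytes of each library, for 5 cell cycle genes and Dab2; blue is NCD, red is MCD. In cDC2 cells Mki67 stays between 34.2 and 51.3 CPM, while in monocytes it is at 14.5 and 24.2 CPM on NCD and at 4.42 and 4.78 CPM on MCD.

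These contrasts rest on the NCD libraries. Against monocytes, 9 genes passed without NCD replicate 1 and 4 without NCD replicate 2, against 150 and 266 without an MCD library. Of the genes named there, Dab2 and Gzma kept their calls when any 1 library was left out, although Gzma was at -3.50 (adjusted p = 0.0559) without members that held 2 genes of another lineage. Ccnd1 lost its call without NCD replicate 1 (2.77, adjusted p = 0.198) and without NCD replicate 2 (3.15, adjusted p = 0.168). Without NCD replicate 1 the adjusted p was 0.0574 for Top2a and 0.111 for Mki67. Without NCD replicate 2 it was 0.158 for Top2a, 0.227 for Mki67, 0.518 for Ube2c (2.08), 0.0739 for Ccnd2 and 0.153 for Il1b (-0.67). In the same cells thinned to 1000 UMIs Ube2c (3.19, adjusted p = 0.350), Top2a (1.55, adjusted p = 0.728) and Mki67 (1.0, adjusted p = 0.911) did not pass. In the monocytes the NCD libraries also held more Cd209a (115 and 71.8 against 10.6 and 36.0 CPM) and more H2-Aa (1143 and 694 against 202 and 172 CPM), and the part of dendritic cell transcripts in the NCD monocyte sums was not tested. By single cells at 1000 UMIs, at least 3 genes of dividing cells were seen in 2.63%, 3.45%, 2.45% and 2.66% of cDC2 cells, that is 6, 7, 8 and 12 cells. In the other cells the shares were 0.655%, 1.41%, 0.204% and 0.157%, and in lymphoid cells 2.78%, 1.59%, 1.47% and 0%, on 36 to 68 cells.

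A last contrast took class II-high cells that carried none of the 5 markers, of which there were 183, 130, 152 and 112. Here 509 of 8235 genes (6.18%) passed, 301 with a more positive and 208 with a more negative diet difference in cDC2 cells (212 and 358 under library totals). Klrd1 led the former with a term of 3.89 (SE 0.31, adjusted p = 1.65e-09), since it was at 143 and 135 CPM in the NCD comparison cells and at 4.63 and 11.9 CPM in the MCD comparison cells. Stmn1 (2.96, SE 0.42, adjusted p = 1.92e-05) and Top2a (2.92, SE 0.57, adjusted p = 0.00111) followed the same order, and both lost their calls without NCD replicate 1 (2.14, adjusted p = 0.159, and 2.01, adjusted p = 0.379). At a class II share of at least 2% Klrd1 did not pass (2.98, adjusted p = 0.115). The comparison cells were not alike on the 2 diets. On MCD they held B cell genes, with Ebf1 at 112 and 152 CPM and Ms4a1 at 39.9 and 85.4 CPM, and both genes were at 0 in the NCD comparison cells. Without cells that held 2 B cell genes, an alternative chosen after seeing the data, 603 genes passed. The values of this contrast therefore describe these 2 sets of cells and not a fixed cell type.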

How the data were processed

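RNA of sorted liver cells was counted in 4 libraries made with 10x droplets. The authors deposited raw UMI counts per gene and barcode, made with Cell Ranger (software version 3.0.2 per the file headers) on mm10 per the submitters' processing notes. Total UMIs were 7518597 and 7428431 on NCD and 32975974 and 37772284 on MCD. The 27998 genes shared by all files were used, which leaves out 694 genes counted in 3 libraries. Counts were summed per library and class, and tested with edgeR 4.0.16 (TMM, filterByExpr, quasi-likelihood F test, Benjamini-Hochberg adjustment at 0.05) in R 4.3.3, with libraries as replicates. The test was checked on simulated data. DESeq2 1.42.0 and other filters were alternatives. Doublets were not called, and members above 2 times the median UMIs of the members of their library were left out in an alternative. Lymphoid cells, read for free RNA, had at least 3 genes of the T, NK or B cell list and no Csf1r UMI, a definition replaced after seeing the data. Their median UMIs were 1409 and 1236.5 on NCD and 5184 and 5034.5 on MCD, so the Csf1r limit was stricter on MCD. Genes were named by size of change (12 a direction, at least 50 CPM and 10 UMIs), by smallest p within a list (up to 4), by size of the class by diet term (8 a direction), or by their ratio to other cells (15). Others named in the text, among them Csf1r, Ccr2, Tap2, H2-Oa, Irf4, Mat2a, Tnf, Pdcd1lg2, Ebf1 and Ms4a1, were chosen after their values were seen. The members and the gene lists were chosen with earlier results of these data known. Positions are from GENCODE M21 on GRCm38. Some listed genes are not reported here.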

Additional observations from a re-analysis of the deposited data

Results flagged for a closer look

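Each value here is a class by diet term on the log2 scale whose own test passed, that is, a diet difference in cDC2 cells that was tested against the diet difference in another class (edgeR, adjusted over all genes). Against all other cells the terms were 2.07 for Ifitm1, 1.80 for Dab2, 1.67 for Top2a, 1.60 for Ccnd1, 1.51 for Stmn1, -1.03 for Il1b and -4.48 for Gzma. Against Ly6c2+ Ccr2+ monocytes, a contrast added after seeing the data, they were 3.62 for Ube2c, 2.94 for Ccnd1, 2.67 for Top2a, 2.51 for Dab2, 2.26 for Mki67, 2.17 for Ccnd2, -1.09 for Il1b and -5.75 for Gzma. Against class II-high cells without cDC2 markers they were 3.89 for Klrd1, 2.96 for Stmn1 and 2.92 for Top2a. In the positive terms the comparison cells were lower on MCD than on NCD.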

How the results depend on the processing

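With 2 libraries a diet, and cells on MCD read more deeply, counts of calls moved with the setting. The 3454 calls between diets became 1789 to 2865 with 1 library left out, 2074 with DESeq2, 393 with cells thinned to 1000 UMIs, 1104 with the same cells thinned, 2263 with class sums thinned, 1162 at a class II share of at least 2%, 569 at a mitochondrial share of at most 5%, 2244 without high-UMI cells and 2104 without cells with other-lineage genes. Against all other cells the 61 calls became 23 to 149 with 1 library left out, 339 with no filter on low counts, 17 with cells thinned, 112 with 3 markers, 119 and 235 at mitochondrial limits of 5% and 20%, 214 without high-UMI cells, 333 without other-lineage cells and 39 without cells with type 1 genes. Against class II-high cells the 509 calls became 85 to 446 with 1 library left out, 187 with DESeq2, 3 with cells thinned, 42 with the same cells thinned, 6 at the class II limit, 139 at the mitochondrial limit of 5%, 73 without high-UMI cells and 59 without other-lineage cells. Against monocytes the 41 calls became 4 to 266 with 1 library left out, 405 with no filter, 1 with cells thinned, 24 with the same cells thinned, 111 with class sums thinned, 89 with 3 markers, 153 at the class II limit, 2 and 105 at the mitochondrial limits, 237 without high-UMI cells and 434 without other-lineage cells. At the mitochondrial limit of 5%, 71 of the 509 calls passed with the opposite sign and 21 with the same sign. The 139 calls there were 7 more positive and 132 more negative in cDC2 cells. Against all other cells 2 of the 61 passed with the opposite sign there, and between diets 1 of the 3454. High-UMI, other-lineage and type 1 cells were left out of the members only, so the comparison cells stayed the same. The cause of these moves was not tested.

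The share difference of 0.45 percentage points became 3.77 with 3 markers, 6.63 at the class II limit, -2.98 without other-lineage cells, -2.19 with cells thinned and -1.20 to 2.09 with 1 library left out, with -0.41 without NCD replicate 2. At the mitochondrial limit of 5%, which left 33 and 24 cDC2 cells on NCD, the values of some named genes changed sign. None of these named genes was past the threshold there (adjusted p 0.117 or more here and below). They changed to 0.43 for Dlc1, 0.66 for Gng11, 9.85 for Plpp3, 8.76 for Oit3, 0.56 for Meis2, 7.99 for Nfib, 7.66 for Mmrn2, 1.49 for Ehd3, 0.033 for Gbp5, 0.35 for Fabp4 and 0.85 for Kdr. The terms reversed there to 7.35 for Gzma against all other cells, and against monocytes to -7.54 for Ube2c, -1.04 for Ccnd2, -7.58 for Top2a, -7.68 for Mki67 and 3.0 for Gzma. With cells thinned, Top2a against all other cells was at -0.26. Of 94 named genes, 48 kept the diet call under every alternative in which they could be tested, and 0 of the 18 terms named did.

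With the replicate number as a block, 3602 genes passed between diets, 3424 of them among the 3454 and in the same direction. The numbers were not shown to pair the libraries, since the deviations of same-numbered libraries correlated at 0.08 across genes.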
